A study of Mus musculus with 95 samples.

Results

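The piRNA pathway genes described here are 10 mouse genes taken by name: Ddx4, Mael, Tdrd1, Tdrd9, Tdrd12, Tdrkh, Mov10l1, Piwil2, Asz1 and Pld6. All 10 were found among the 23377 genes of the count table. They were chosen from a list of names, not from their values in the table. RNA was sequenced from E14 mouse embryonic stem cells of 7 genotypes with 2 libraries each: wild-type, Pcgf1-/-, Pcgf2/4-/-, Pcgf3/5-/-, Pcgf6-/-, Pcgf1/2/4-/- and Pcgf3/5/6-/-. Chromatin immunoprecipitation (ChIP-seq) in these lines gave the peak lists used for the starts of the 10 genes, nearly always 1 list per antibody and line. Further lists came from cells with a control hairpin (shCtr) or with hairpins labelled shMGA, shMGAdHLH, shE2F6 and shE2F6-MGAdHLH, from Ezh1/2-/- cells, and from a line that lacks Ring1a and carries a conditional Ring1b allele (Ring1A-/-;Ring1B fl/fl;Rosa26::CreERT2). The last was profiled before (Ring1a-/-_Ring1bfl) and after (Ring1a/b-/-) loss of Ring1b, so both of its states lack Ring1a. All lines were kept on gelatin in serum medium to which LIF and inhibitors of the kinases MEK1/2 and GSK3β were added. The Pcgf lines were clones edited with Cas9, and lines without several genes were made by editing single-knockout clones again. The count table's column names give 1 clone for each genotype, and the authors' deposited table of the Pcgf6-/- comparison carries another clone number for this line than the count table does. An effect of the clone and an effect of the genotype therefore cannot be told apart.

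PIWI-interacting RNAs (piRNAs) are small RNAs that guide PIWI proteins to transposon transcripts and to transposon DNA in the germ line. Their precursors are processed at the mitochondrial surface and in nuage, the RNA-rich granules of germ cells, by a set of nucleases, helicases and Tudor-domain scaffold proteins. Male mice without such genes are typically sterile. PCGF6 is the subunit that defines one variant of Polycomb repressive complex 1, in which RING1B is the ubiquitin ligase of histone H2A, and MGA with MAX, and E2F6, are DNA-binding subunits. This variant is known for holding germ-line genes silent in embryonic stem cells. H3K4me3 is a histone mark of active and poised gene starts.

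Library totals ran from 2147968 to 7848161 counts. The wild-type libraries differed by less than sampling noise (chi-square per degree of freedom 0.951 over 13931 genes, against 1.19 to 21.3 in the other genotypes). They may be 1 sample, so no wild-type SD is given. Both entered the fit, whose standard errors and p-values against wild-type treat them as 2 libraries, and each count of members against wild-type was also made with the pair summed to 1 library, an alternative chosen after seeing the data. The labels do not say that the libraries of a genotype came from separate cultures, so p-values measure only the spread between libraries, which may be technical. Lack of overlap between the libraries of 2 groups was not counted over all genes and is given below only as a description. Pcgf6 had 0 counts in both Pcgf6-/- libraries, against a mean of 35.3 CPM (counts scaled to the library size) in wild-type. In the libraries labelled Pcgf3/5/6-/- its mean was 39.6 CPM (log2 difference from wild-type 0.17, adjusted p = 0.338), with Pcgf3 at 13.6 CPM and Pcgf5 at 15.0 CPM, against 15.9 and 11.9 CPM in wild-type. In Pcgf3/5-/- Pcgf3 was at 12.1 and Pcgf5 at 5.04 CPM, and in Pcgf2/4-/- Pcgf2 was at 47.9 and Bmi1, the gene of PCGF4, at 13.1 CPM, against 45.9 and 15.2 CPM in wild-type. The edited positions are not given in the labels, so a transcript near the wild-type level checks nothing. Pcgf1 was at 4.01 CPM in Pcgf1-/- and 0.719 CPM in Pcgf1/2/4-/-, against 63.6 CPM in wild-type.

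Sequence is shown first for the 240 bases upstream of the start of 8 of the genes, read from the mouse build NCBIM37 (mm9) on the gene's own strand and ending at the base before its most upstream start in GENCODE M1 or RefSeq. Capitals mark an E-box with the letters CACGTG, the element that MGA with MAX is known to bind, and in Ddx4 also an E2F element, here any of TTCCCGCC, TTTCCCGC and TTGGCGCC, searched on both strands. The 6 genes with an E-box come first. Tdrkh and Asz1 are shown because their transcripts changed strongly in Pcgf6-/- cells and neither element is in their windows. The windows of Piwil2, whose transcript also rose strongly, and of Tdrd12 hold neither element too and are not shown.
Ddx4, chr13:113442519-113442758, minus strand: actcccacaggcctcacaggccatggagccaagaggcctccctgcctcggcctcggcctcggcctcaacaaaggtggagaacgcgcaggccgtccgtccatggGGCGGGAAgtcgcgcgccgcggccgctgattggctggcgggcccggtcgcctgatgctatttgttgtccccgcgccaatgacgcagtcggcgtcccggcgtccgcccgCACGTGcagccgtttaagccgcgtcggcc
Mael, chr1:168168876-168169115, minus strand: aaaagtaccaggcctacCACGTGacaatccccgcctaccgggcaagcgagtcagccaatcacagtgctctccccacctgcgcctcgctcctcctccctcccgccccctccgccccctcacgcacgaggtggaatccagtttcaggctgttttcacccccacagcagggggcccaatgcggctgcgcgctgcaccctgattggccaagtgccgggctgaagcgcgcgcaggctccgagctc
Tdrd1, chr19:56900459-56900698, plus strand: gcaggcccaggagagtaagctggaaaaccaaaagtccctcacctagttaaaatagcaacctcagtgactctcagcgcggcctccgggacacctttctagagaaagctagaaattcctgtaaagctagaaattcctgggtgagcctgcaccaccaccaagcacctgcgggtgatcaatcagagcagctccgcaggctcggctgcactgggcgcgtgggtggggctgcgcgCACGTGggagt
Tdrd9, chr12:113209530-113209769, plus strand: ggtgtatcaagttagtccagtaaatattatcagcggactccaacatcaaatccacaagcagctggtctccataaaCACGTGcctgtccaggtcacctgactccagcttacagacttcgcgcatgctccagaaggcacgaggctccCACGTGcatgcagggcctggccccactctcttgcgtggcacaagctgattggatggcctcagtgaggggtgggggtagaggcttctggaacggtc
Mov10l1, chr15:88813099-88813338, plus strand: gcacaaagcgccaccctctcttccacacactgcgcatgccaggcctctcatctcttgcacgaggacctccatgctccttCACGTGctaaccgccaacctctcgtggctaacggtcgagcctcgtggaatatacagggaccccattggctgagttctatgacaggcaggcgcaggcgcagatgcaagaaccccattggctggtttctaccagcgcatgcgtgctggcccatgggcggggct
Pld6, chr11:59601160-59601399, minus strand: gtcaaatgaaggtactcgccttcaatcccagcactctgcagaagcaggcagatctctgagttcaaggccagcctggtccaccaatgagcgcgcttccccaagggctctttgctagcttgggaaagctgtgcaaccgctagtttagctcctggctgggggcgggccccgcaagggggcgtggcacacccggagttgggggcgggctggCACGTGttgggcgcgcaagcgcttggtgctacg
Tdrkh, chr3:94216926-94217165, plus strand: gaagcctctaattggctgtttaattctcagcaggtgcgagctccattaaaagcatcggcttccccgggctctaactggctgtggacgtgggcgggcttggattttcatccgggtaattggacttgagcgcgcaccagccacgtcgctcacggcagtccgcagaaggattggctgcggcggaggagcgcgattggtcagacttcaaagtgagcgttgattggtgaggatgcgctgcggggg
Asz1, chr6:18059062-18059301, minus strand: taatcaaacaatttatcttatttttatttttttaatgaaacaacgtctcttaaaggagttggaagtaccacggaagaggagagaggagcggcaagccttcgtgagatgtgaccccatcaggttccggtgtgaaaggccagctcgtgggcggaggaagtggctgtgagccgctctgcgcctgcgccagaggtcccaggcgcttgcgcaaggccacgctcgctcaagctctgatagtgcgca
The E-box began 29 bases before the start in Ddx4, 223 in Mael, 11 in Tdrd1, 161 in Mov10l1 and 33 in Pld6, and Tdrd9 held one 165 and another 95 bases before it. The E2F element of Ddx4 began 137 bases before the start. In all, 6 of the 10 upstream windows held the E-box, against 6.38% of windows of the same length at 22380 protein-coding genes. Those background windows used the GENCODE start alone, while the windows of Tdrkh and Pld6 used a RefSeq start at -52 and -12 bases from it. An E2F element was in 1 of the 10, against 3.5%. A T-box site, AGGTGTGA, which the other DNA-binding domain of MGA is known to recognise, was in 0 of the 10, against 0.925%. RefSeq promoter windows (build GRCm38.p6, 250 bases before to 50 bases after the start) were matched for 9 of the 10 genes by symbol. They gave the E-box in 6 of 9 (Ddx4, Mael, Tdrd1, Tdrd9, Mov10l1 and Pld6), against 8.09% of 27025 genes. The looser E-box CANNTG, which includes CACGTG, was in 8 of 9, against 75%. A match says only that the letters are there, and the lack of one says nothing of binding.

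In NCBIM37 the genes lie on 10 different chromosomes, so none shares a neighbourhood with another. The gene bodies annotated in GENCODE M1 are Ddx4 at chr13:113388541-113442518 (minus strand), Mael at chr1:168131516-168168875 (minus), Tdrd1 at chr19:56900699-56944502 (plus), Tdrd9 at chr12:113209770-113307065 (plus) and Tdrd12 at chr7:36254117-36322764 (minus). The others are Tdrkh at chr3:94217218-94236555 (plus), Mov10l1 at chr15:88813339-88885582 (plus), Piwil2 at chr14:70772287-70828901 (minus), Asz1 at chr6:18000964-18059061 (minus) and Pld6 at chr11:59597399-59601147 (minus). Only 3 had another annotated start within 2.5 kb of their own: Tdrkh (413 bp, the non-coding RNA 1700040D17Rik on the other strand), Piwil2 (497 bp, a U11 gene) and Mov10l1 (1200 bp, a U1 gene). Tdrd9 overlaps BC048943 on the other strand without sharing exon sequence. The use of strand in the counting is not given in the sources used here, so reads of overlapping genes may not be separated.

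In Pcgf6-/- cells most of the pathway rose: 8 of the 10 genes were higher than in wild-type, against 27.8% of the 15464 genes tested, and 0 were lower, against 18.6%. The 2 others, Tdrd12 and Pld6, passed no test. Both reached the count filter in the wild-type libraries, as did Ddx4, Mael, Tdrd9, Tdrkh, Mov10l1 and Piwil2, which rose. Tdrd1 and Asz1 were tested only because knockout libraries reached the count filter, so they had to differ, and among the other 8 genes 6 rose. The median log2 fold change of the 10 genes was 3.62, beside 0.03 over all genes tested. For lower calls, edgeR gave 0 members also at an unadjusted p under 0.05, and DESeq2 called 0. With the wild-type pair summed the counts were again 8 and 0. In bulk RNA, more cells that express a gene and more RNA of it per cell cannot be told apart.

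Piwil2 is the PIWI protein of the list and binds piRNAs in fetal and postnatal male germ cells. It stood at 17.55 and 14.1 CPM in the wild-type libraries and at 156 and 160.1 CPM in Pcgf6-/-. Both knockout libraries lay far above both wild-type libraries (log2 fold change 3.32 ± 0.141 SE, 9.98-fold, adjusted p = 5.89e-10).

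The helicases of the pathway were low in wild-type cells and high in Pcgf6-/-. Mov10l1, the RNA helicase that feeds precursors to processing, had 11.99 and 10.1 CPM in wild-type and 198 and 204 CPM in Pcgf6-/- (log2 4.18 ± 0.157 SE, 18.2-fold, adjusted p = 3e-10). Ddx4, the Vasa homologue and the classical germ cell marker, had 16.1 and 15.2 CPM in wild-type and 224 and 249.9 CPM in Pcgf6-/- (log2 3.92 ± 0.128 SE, 15.1-fold, adjusted p = 1.14e-10). Tdrd9 pairs a helicase with a Tudor domain and works in transposon silencing. Its values were 6.42 and 3.798 CPM in wild-type and 26.3 and 26.5 CPM in Pcgf6-/- (log2 2.37 ± 0.260 SE, 5.15-fold, adjusted p = 4.49e-06). None of these helicases overlapped between the groups, but neither did Tdrd12 and Pld6, which passed no test (adjusted p = 0.885 and 0.778). Tdrd9 had the smallest of the 8 rises, and with the libraries thinned to the smallest total its log2 fold change was 4.11.

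Tdrd12, a helicase-like Tudor protein of secondary piRNA production, did not follow them. Its wild-type libraries held 114 and 113 CPM and its Pcgf6-/- libraries 109 and 112 CPM. The groups lay side by side with a difference of -0.03 ± 0.138 SE on the log2 scale (adjusted p = 0.885).

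Tdrkh and Tdrd1 are Tudor scaffolds. Tdrkh sits on mitochondria and holds PIWI proteins while precursors are trimmed, and Tdrd1 binds methylated PIWI proteins in nuage. Tdrkh had 7.13 and 3.24 CPM in wild-type and 137 and 148 CPM in Pcgf6-/- (log2 4.77 ± 0.199 SE, 27.4-fold, adjusted p = 4.89e-10). Its wild-type libraries held 50 and 23 counts (exact binomial p = 0.00141). That test was run for this gene alone and not adjusted, so it does not show that the libraries differ. The log2 fold change was 5.45 without wild-type replicate 1. Tdrd1 was near the detection limit in wild-type, with 3 and 4 counts (0.428 and 0.563 CPM), and had 210 and 163 counts in Pcgf6-/- (26.1 and 25.0 CPM). The ratio of the summed counts, each over its summed library size, was 51.7 (95% counting interval 24.8 to 129, adjusted p = 5.86e-09). Both scaffolds thus had every Pcgf6-/- library above every wild-type library.

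Mael, an HMG-box protein of nuage that acts in transposon silencing, had 20.1 and 23.9 CPM in wild-type and 194 and 219.9 CPM in Pcgf6-/- (log2 3.23 ± 0.130 SE, 9.37-fold, adjusted p = 4.07e-10). The groups did not overlap.

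The mitochondrial members split. Asz1, an ankyrin-repeat protein that holds processing complexes at mitochondria, had 5 and 0 counts in wild-type and 1017 and 925 counts in Pcgf6-/- (127 and 142 CPM). The same ratio was 377 (95% counting interval 161 to 1161, adjusted p = 7.59e-10), the largest of the 10. Since wild-type replicate 2 held no count, the fold against it alone is not given, and the log2 value without it was 7.51. Pld6, the nuclease also known as Zucchini that cuts piRNA precursors at the mitochondrial surface, had 37.8 and 36.4 CPM in wild-type and 40.2 and 38.1 CPM in Pcgf6-/-. Its difference was 0.08 ± 0.176 SE on the log2 scale (adjusted p = 0.778).

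**Figure D1:**
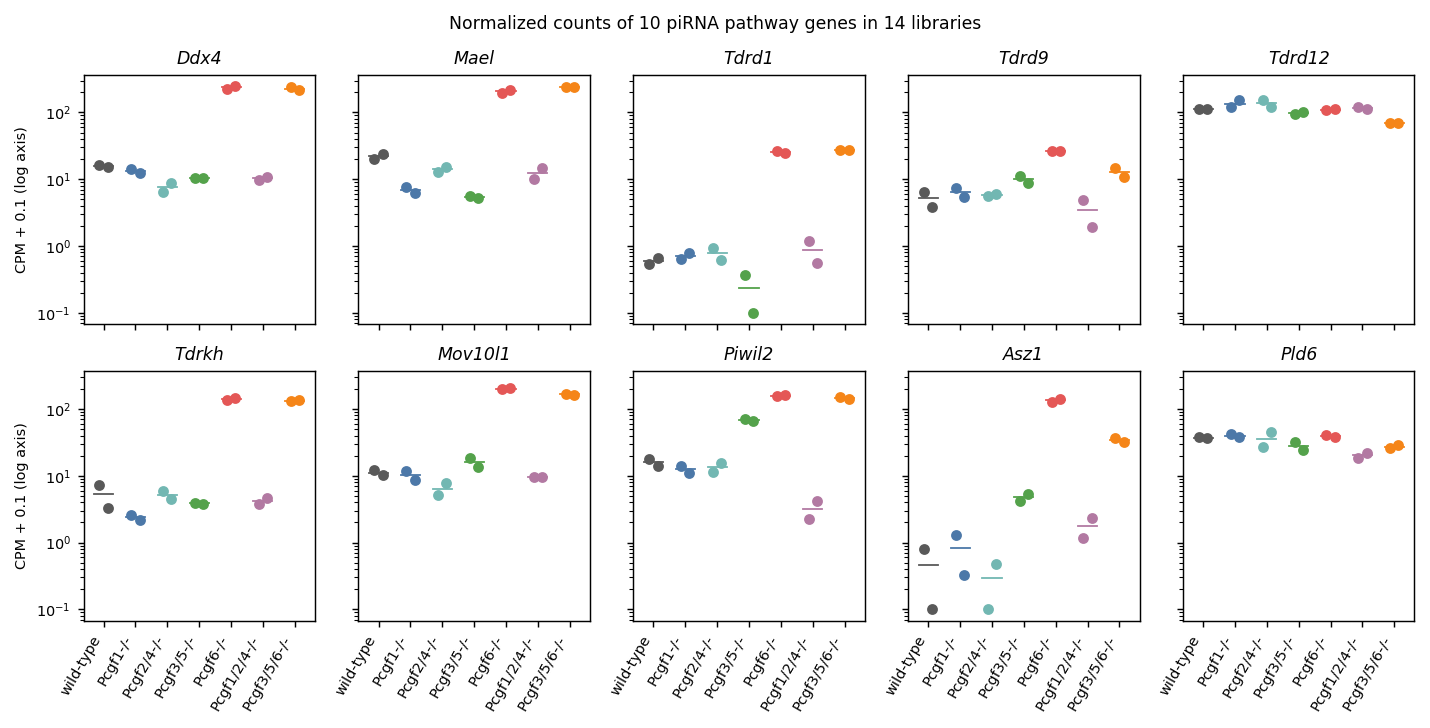
Normalized counts (CPM) of the 10 genes in each of the 14 RNA-seq libraries (log axis), 1 point per library, grouped by genotype. The Pcgf6-/- and Pcgf3/5/6-/- points of Ddx4, Mael, Tdrd1, Tdrkh, Mov10l1, Piwil2 and Asz1 sit above those of every other genotype, while Tdrd12 stays between 68.3 and 154 CPM and Pld6 between 18.2 and 44.9 CPM. Horizontal lines are group means, and 0.1 was added so that a value of 0 can be drawn.

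The libraries labelled Pcgf3/5/6-/- gave a similar set of levels. Against wild-type 8 members were higher, with a background of 28%, and 1 was lower, with a background of 25.3%. Tdrd1 and Asz1 are again among the 8 only because knockout libraries such as these reached the count filter, so their p-values carry no weight here, and among the other 8 genes 6 were higher. The counts were the same with the wild-type pair summed. The median log2 fold change was 3.66, beside 0.05 over all genes. This comparison and the one for Pcgf6-/- share the wild-type libraries, so their likeness is no separate result, and the direct contrast between the lines is the test. Ddx4 had 241 and 216 CPM (log2 fold change against wild-type 3.86 ± 0.129 SE, adjusted p = 9.27e-11), Mael 237 and 244 CPM (3.45 ± 0.132 SE, 3.77e-10) and Mov10l1 169 and 164 CPM (3.91 ± 0.160 SE, 6.35e-10). Tdrkh had 129.9 and 136 CPM (4.68 ± 0.203 SE, adjusted p = 9.33e-10, and 5.34 without wild-type replicate 1) and Piwil2 150.1 and 142 CPM (3.21 ± 0.145 SE, 1.09e-09). Each of these 5 genes lay above wild-type in both libraries. Tdrd1 had 26.86 and 27.04 CPM, a ratio of 54.3 to wild-type (95% counting interval 25.8 to 137, adjusted p = 1.14e-08). Asz1 had 37.3 and 31.8 CPM, a ratio of 97.8 (41.2 to 304, adjusted p = 5.24e-08), and its log2 value was 5.55 without wild-type replicate 2, beside 6.52 with both.

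In the direct contrast of the libraries labelled Pcgf3/5/6-/- with Pcgf6-/-, 4 members differed, all of them lower in Pcgf3/5/6-/-, against 46% of genes called in either direction. Asz1 was 3.88-fold lower (log2 -1.95 ± 0.216 SE, adjusted p = 1.01e-05). Tdrd9 had 14.5 and 10.8 CPM against 26.3 and 26.5 CPM (log2 -1.05 ± 0.260 SE, adjusted p = 0.00459). Tdrd12 had 69.2 and 68.3 CPM against 109 and 112 CPM (log2 -0.69 ± 0.146 SE, adjusted p = 0.00168), and it was also the 1 gene below wild-type (log2 -0.72 ± 0.146 SE, 1.65-fold, adjusted p = 0.000852). Pld6 had 25.6 and 28.4 CPM against 40.2 and 38.1 CPM (log2 -0.54 ± 0.201 SE, adjusted p = 0.0405), and against wild-type it passed no test (log2 -0.46 ± 0.202 SE, adjusted p = 0.069). In all 4 genes both Pcgf3/5/6-/- libraries lay below both Pcgf6-/- libraries. Without Pcgf3/5/6-/- replicate 2 the count fell to 2. Tdrd9 was above wild-type in these libraries (log2 1.31 ± 0.313 SE, 2.49-fold, adjusted p = 0.00276), and without Pcgf3/5/6-/- replicate 1 that call was lost (1.07, adjusted p = 0.0513). With the libraries thinned to the smallest total the log2 value of Tdrd9 was 3.11.

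In Pcgf3/5-/- cells the genes differed from wild-type in both directions. There 4 members were higher than wild-type, against 11.1% of all genes, and 2 were lower, against 10.4%. The median log2 fold change of the 10 was -0.31, beside 0 over all genes. Piwil2 rose to 70.6 and 66.0 CPM, above both wild-type libraries (log2 2.11 ± 0.144 SE, 4.32-fold, adjusted p = 4.48e-07). Asz1 reached 4.14 and 5.18 CPM, a ratio of 12.9 to wild-type (95% counting interval 5.22 to 41.2, adjusted p = 0.000889), and it was tested only because these and other knockout libraries passed the filter. Without wild-type replicate 2, which held no count of Asz1, its log2 value was 2.65, beside 3.61 with both. Mael fell to 5.48 and 5.18 CPM, 4.10-fold under wild-type (log2 -2.04 ± 0.176 SE, adjusted p = 3.05e-06). The same nuage protein had been among the genes raised in Pcgf6-/-.

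The other calls in Pcgf3/5-/- were small. Ddx4 had 10.4 and 10.2 CPM (log2 -0.60 ± 0.154 SE, adjusted p = 0.0131), Tdrd9 11.2 and 8.63 CPM (0.98 ± 0.290 SE, 0.0276) and Mov10l1 18.6 and 13.2 CPM (0.55 ± 0.183 SE, 0.0458). Both libraries lay beyond both wild-type libraries in each. None of these calls held when each library was left out in turn. Ddx4 lost its call without wild-type replicate 1 (adjusted p = 0.0938), wild-type replicate 2 (0.0555), Pcgf3/5-/- replicate 1 (0.0783) and Pcgf3/5-/- replicate 2 (0.0727). Tdrd9 lost it without wild-type replicate 2 (0.265) and Pcgf3/5-/- replicate 1 (0.215), and Mov10l1 without wild-type replicate 1 (0.0925), wild-type replicate 2 (0.291) and Pcgf3/5-/- replicate 1 (0.516). With the wild-type pair summed, Tdrd9 (adjusted p = 0.0534) and Mov10l1 (0.113) were not called, which left 2 higher and 2 lower. Tdrkh, at 3.88 and 3.64 CPM, was called lower only without wild-type replicate 2 (log2 -0.91, adjusted p = 0.0276).

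Pcgf6-/- differed from Pcgf3/5-/- in 9 members, each higher in Pcgf6-/-, against 46% of genes called in either direction. The difference in Piwil2 was 1.21 ± 0.123 SE on the log2 scale (adjusted p = 2.28e-06), so Piwil2 rose further in Pcgf6-/- than in Pcgf3/5-/-. Asz1 differed by 4.86 ± 0.261 SE and Tdrd9 by 1.39. Pld6 was among the 9 with a difference of 0.47 (adjusted p = 0.0466), and only Tdrd12 passed no test. The libraries labelled Pcgf3/5/6-/- differed from Pcgf3/5-/- in 8 members, against 51.8% of all genes. Of these, 7 were higher: Ddx4 by 4.47, Mael by 5.48, Tdrkh by 5.13, Mov10l1 by 3.36, Piwil2 by 1.09 and Asz1 by 2.91 on the log2 scale, and Tdrd1, which had 0.267 and 0 CPM in Pcgf3/5-/-. Tdrd12 was lower by -0.49 (adjusted p = 0.0114). Tdrd9 (0.34, adjusted p = 0.346) and Pld6 (-0.07) passed no test. Tdrd1 is in both counts, but only Pcgf6-/- and Pcgf3/5/6-/- libraries brought it past the count filter, so its calls carry no weight.

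In the libraries labelled Pcgf1-/-, Pcgf2/4-/- and Pcgf1/2/4-/- no member was called higher. In Pcgf1-/- 0 members were higher, against 13.9% of genes, and 2 were lower, against 18.4%. Mael had 7.43 and 6.17 CPM, 3.15-fold under wild-type (log2 -1.66 ± 0.167 SE, adjusted p = 8.43e-06). Tdrkh had 2.51 and 2.06 CPM (log2 -1.13 ± 0.329 SE, adjusted p = 0.0176), and both genes lay below both wild-type libraries. The Tdrkh call was lost without wild-type replicate 1 (-0.46, adjusted p = 0.47), Pcgf1-/- replicate 1 (0.0903) or Pcgf1-/- replicate 2 (0.102). For higher calls edgeR gave 0 members at an unadjusted p under 0.05, and DESeq2 called 0. Asz1, at 1.202 and 0.229 CPM, was called higher only without wild-type replicate 1, where the remaining wild-type library holds no count (adjusted p = 0.0438). Tdrd12 was called higher with loess offsets (0.33, adjusted p = 0.0149) and Tdrd9 with thinned libraries (2.70, adjusted p = 0.0459).

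In Pcgf2/4-/- 0 members were higher, against 8.1%, and 3 were lower, against 13.5%. At an unadjusted p under 0.05 edgeR again had 0 higher members, and DESeq2 called 0. Ddx4 had 6.28 and 8.82 CPM (log2 -0.95 ± 0.170 SE, adjusted p = 0.00137), Mael 12.6 and 15.2 CPM (-0.62 ± 0.158 SE, 0.0128) and Mov10l1 5.03 and 7.67 CPM (-0.67 ± 0.223 SE, 0.0447). In each gene both libraries were under both wild-type libraries. Mael lost its call without wild-type replicate 2 (adjusted p = 0.129). Mov10l1 lost it without wild-type replicate 1 (0.233), wild-type replicate 2 (0.0714) or Pcgf2/4-/- replicate 1 (0.137), and with the wild-type pair summed (0.0854), which left 2 lower members. Tdrd12, at 153.7 and 119.3 CPM, was called higher only without Pcgf2/4-/- replicate 2 (log2 0.44, adjusted p = 0.0269).

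In Pcgf1/2/4-/- 0 members were higher, against 14.4%, and 4 were lower, against 22.6%. Piwil2 fell to 2.14 and 4.06 CPM, 4.95-fold under wild-type (log2 -2.31 ± 0.309 SE, adjusted p = 8.77e-05), the largest of the called falls of the 10 genes in the 6 lines. Pld6, which did not pass the test against wild-type in any other line, had 18.2 and 22.1 CPM (log2 -0.87 ± 0.230 SE, adjusted p = 0.00969), and lost the call without Pcgf1/2/4-/- replicate 1 (0.115) or replicate 2 (0.0507). Both genes lay under both wild-type libraries.

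Mael had 10.1 and 14.5 CPM in Pcgf1/2/4-/- (log2 -0.82 ± 0.196 SE, adjusted p = 0.00546) and Ddx4 9.61 and 10.8 CPM (-0.61 ± 0.200 SE, 0.029). Both genes lay under both wild-type libraries, and neither was called with loess offsets. Mael was also lost without Pcgf1/2/4-/- replicate 1 (0.106). Ddx4 was lost without any 1 of the 4 libraries: wild-type replicate 1 (0.104), wild-type replicate 2 (0.0625), Pcgf1/2/4-/- replicate 1 (0.201) and Pcgf1/2/4-/- replicate 2 (0.118). It was also lost with the wild-type pair summed (0.0629), which left 3 lower. For higher calls edgeR had 1 member at an unadjusted p under 0.05 and DESeq2 called 1, in each case Asz1, which had 1.07 and 2.26 CPM, a ratio of 4.84 to wild-type (95% counting interval 1.32 to 19.3, adjusted p = 0.0991). Without wild-type replicate 1 edgeR called Asz1 too (adjusted p = 0.0182). The scaling matters in this line: the median over all genes was -0.11 with the main scaling and -0.01 with loess offsets. Of all genes called in Pcgf1/2/4-/-, 38.9% were higher with the main scaling, 51.1% with DESeq2 and 49.8% with loess offsets.

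**Figure D2:**
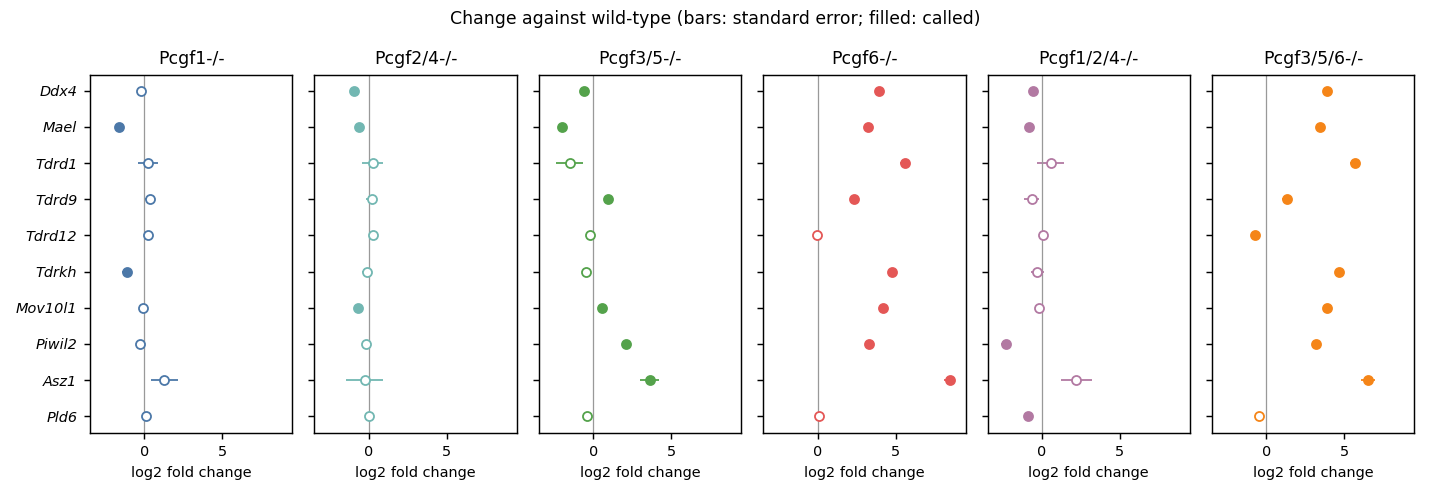
Log2 fold change of the 10 genes against wild-type (horizontal axis), 1 panel for each of the 6 knockout lines, with bars of 1 standard error from the edgeR fit and filled points for an adjusted p below 0.05. In Pcgf6-/- and Pcgf3/5/6-/- 8 filled points stand to the right of 0, and in Pcgf1-/-, Pcgf2/4-/- and Pcgf1/2/4-/- every filled point stands to the left of it.

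Pcgf6-/- was also tested directly against Pcgf1-/-, Pcgf2/4-/- and Pcgf1/2/4-/-. It was higher than Pcgf1-/- in 8 members (52.5% of all genes were called in either direction) and higher than Pcgf2/4-/- in 8 (51.8%). Against Pcgf1/2/4-/- it was higher in 9 (57.7%), with Piwil2 different by 5.63 and Pld6 by 0.95 (adjusted p = 0.00307). Tdrd1 and Asz1 are in each of these counts. They were tested only because knockout libraries such as those of Pcgf6-/- reached the count filter, so their differences carry no weight here. These contrasts share the Pcgf6-/- libraries.

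Levels can be ranked between genes only per length of exon. In wild-type cells Tdrd12 stood highest at 27.8 CPM per kb, then Pld6 at 21.1 and Mael at 14.2 CPM per kb. Ddx4 (5.50), Piwil2 (3.22), Mov10l1 (2.62), Tdrkh (1.36), Tdrd9 (1.06), Asz1 (0.126) and Tdrd1 (0.091 CPM per kb) followed. In Pcgf6-/- the order was Mael at 133.7 ± 12.01 CPM per kb (SD, n = 2), Ddx4 at 83.2 ± 6.34, Mov10l1 at 47.7 ± 1.03, Asz1 at 47.4 ± 3.77, Tdrkh at 37.4 ± 1.94, Piwil2 at 32.2 ± 0.609, Tdrd12 at 27.1 ± 0.557, Pld6 at 22.3 ± 0.831, Tdrd9 at 5.49 ± 0.0347 and Tdrd1 at 4.70 ± 0.152. Mov10l1 and Asz1 were nearer to each other than their spread. The highest members of wild-type cells, Tdrd12 and Pld6, thus came after 6 others in Pcgf6-/-.

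The 10 genes were also compared by their pattern over the 7 genotypes. Each gene's profile was the log2 of its mean CPM per genotype, with a small offset added. Pearson's r was taken with the mean of the standardized profiles of the other 9. It was 0.938 for Ddx4, 0.935 for Mov10l1, 0.924 for Tdrkh, 0.908 for both Tdrd9 and Tdrd1, 0.876 for Asz1, 0.866 for Mael and 0.812 for Piwil2. It was 0.198 for Pld6 and -0.571 for Tdrd12. Candidates outside the lists were the 5016 tested genes whose profile spanned at least 2 on the log2 scale. The 5 most like the members' mean were Abcc6 (0.995), Trim68 (0.994), Gm16938 (0.993), Tmem189 (0.991) and Tex11 (0.989), the last a gene of meiotic recombination. Tex11 had means of 17.85 CPM in wild-type, 223.5 CPM in Pcgf6-/- and 149.5 CPM in Pcgf3/5/6-/-. These values describe 7 points that share libraries, and the most alike of 5016 genes must lie near 1.

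Of 18 other piRNA pathway genes on a list, 17 were in the count table and 16 were tested. In Pcgf6-/- 12 of the 16 were higher and 1 was lower, against 27.8% and 18.6% of all genes. The median was 1.18, and Fkbp6, Morc1 and Mybl1 passed no test. Henmt1, Piwil4 and Tdrd7 lay below the count filter in both wild-type libraries and were tested only because knockout libraries reached it. Their higher calls therefore carry no weight. Henmt1, which methylates the 3' end of piRNAs, rose from 0.856 and 0.703 CPM to 23.8 and 19.8 CPM (log2 4.77). Gtsf1, a partner of PIWI proteins in silencing, rose from 6.14 and 7.45 CPM to 81.8 and 88.2 CPM (log2 3.64). Stk31, a Tudor-domain protein of germ cells, rose from 78.8 and 75.5 CPM to 216 and 236 CPM (log2 1.55). In each of these genes the groups were apart.

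The list holds further PIWI genes. Piwil4, the nuclear PIWI protein of fetal male germ cells, had 0 and 1 counts in wild-type and 3.73 and 3.37 CPM in Pcgf6-/-, and Piwil1, the PIWI protein of meiotic cells, rose by 1.31. Tdrd7 had 0 counts in both wild-type libraries and 2.49 and 0.613 CPM in Pcgf6-/-. The other higher genes were Tdrd5 (log2 2.89), Btbd18 (1.57), Rnf17 (1.04), Exd1 (0.69), Tex15 (0.64) and Gpat2 (0.57). Pnldc1, the trimmer of piRNA 3' ends, fell from 61.4 and 66.1 CPM to 36.1 and 32.8 CPM (log2 -0.88).

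In the libraries labelled Pcgf3/5/6-/- 9 of the 16 were higher and 2 lower, against 28% and 25.3% of all genes. The median was 0.63. The lower genes were Pnldc1 (16.1 and 18.9 CPM, log2 -1.86) and Morc1 (-1.14). Henmt1 had 12.3 and 12.5 CPM there and Gtsf1 24.6 and 22.3 CPM. The higher and lower counts were 5 and 2 in Pcgf1-/- (13.9% and 18.4% of all genes) and 4 and 1 in Pcgf2/4-/- (8.1% and 13.5%). They were 7 and 1 in Pcgf3/5-/- (11.1% and 10.4%) and 2 and 2 in Pcgf1/2/4-/- (14.4% and 22.6%). Counts near these shares say nothing particular of the list.

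Lists of meiotic axis genes (14 tested of 16) and of other germ cell genes (13 of 14) are given for comparison. In Pcgf6-/- 11 of the 14 axis genes were higher and 1 lower (median 1.55), and 10 of the 13 germ cell genes were higher and 1 lower (median 2.55). Of all genes, 27.8% were higher and 18.6% lower there. In the libraries labelled Pcgf3/5/6-/- the counts were 8 and 2 (median 1.15) and 8 and 1 (median 2.67), against 28% and 25.3%. In Pcgf3/5-/- they were 7 and 0, and 6 and 2 (11.1% and 10.4% of all genes). In Pcgf1-/- they were 3 and 2, and 3 and 6 (13.9% and 18.4%). In Pcgf2/4-/- they were 2 and 2, and 2 and 3 (8.1% and 13.5%), and in Pcgf1/2/4-/- 0 and 3, and 1 and 5 (14.4% and 22.6%). As with the members, genes low in wild-type could enter these tests through knockout libraries alone. No difference between these lists and the 10 members was tested.

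Markers of other cell types were summed per library. Embryonic stem cell markers (8 of 8 in the table, none at 0) ran from 2014 to 2019 CPM in wild-type, 1715 to 1840 CPM in Pcgf6-/- and 2144 to 2146 CPM in Pcgf3/5/6-/-. Two-cell-like markers (5 of 5, none at 0 in these lines) ran from 80.7 to 83.0 CPM in wild-type, 425 to 461 CPM in Pcgf6-/- and 236.7 to 239.95 CPM in Pcgf3/5/6-/-. Primitive endoderm markers (6 of 6) ran from 3.09 to 3.57 CPM in wild-type, where Dab2, Gata4, Gata6 and Sox17 were at 0, from 48.1 to 55.0 CPM in Pcgf6-/- and from 56.6 to 65.2 CPM in Pcgf3/5/6-/-. In Pcgf6-/- 42.5 and 38.5 CPM of the last sum came from Dab2 alone, and in Pcgf1/2/4-/-, where no member was called higher, the sum ran from 14.9 to 15.8 CPM. The two-cell-like and primitive endoderm sums were thus higher in both lines in which 8 members were called higher, the stem cell sum was not, and the part of these cells in the result was not tested.

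Trophoblast markers (6 of 6, none at 0 in these lines) ran from 137 to 148 CPM in wild-type, 68.0 to 75.4 CPM in Pcgf6-/- and 164 to 166 CPM in Pcgf3/5/6-/-. Spermatocyte and spermatid markers (7 of 7) ran from 15.2 to 16.4 CPM in wild-type and 38.3 to 40.8 CPM in Pcgf6-/-, where Acrv1, Prm1 and Tnp2 were at 0 and Ldhc alone gave 33.9 and 32.2 CPM. They ran from 22.1 to 22.3 CPM in Pcgf3/5/6-/-, and in lines with no member called higher from 38.95 to 42.8 CPM in Pcgf2/4-/- and from 30.3 to 31.5 CPM in Pcgf1/2/4-/-. Sertoli cell markers (3 of 4) ran from 6.19 to 6.99 CPM in wild-type and 13.5 to 17.1 CPM in Pcgf6-/-, with Amh at 0 and Gata1 at a mean of 15.2 CPM. Primordial germ cell markers (5 of 5) ran from 154.5 to 155.1 CPM in wild-type, 236 to 239 CPM in Pcgf6-/- and 388 to 393 CPM in Pcgf3/5/6-/-. Their members moved apart: in Pcgf6-/- Nanos3 was lower (log2 -0.96, adjusted p = 0.00068) and Dnd1 passed no test (-0.11, adjusted p = 0.598), while Dppa3 rose from a mean of 25.1 to 93.8 CPM. In Pcgf3/5/6-/- Dnd1 was lower (log2 -0.74, adjusted p = 0.00149), and Tfap2c, at a mean of 161.7 CPM against 18.1 CPM in wild-type, made up much of the sum.

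The starts of the genes were then read for peaks of PCGF6. A member was counted where a peak overlapped the window of 2.5 kb on either side of an annotated start, and the same count over 22380 protein-coding genes stands beside it as the background. Each peak carries a fold enrichment, which is the authors' own value for that peak and is used only to rank peaks within its list. There was 1 list per line, so none of these counts has a replicate check.

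In wild-type cells 8 of the 10 genes had a PCGF6 peak, against 5.77% of coding genes, in a list of 1868 peaks. Ddx4 had the strongest, with a fold enrichment of 24.2, at or above 98.3% of the list, then Tdrkh (21.9, 97.3%), Mov10l1 (19.05, 95.8%), Piwil2 (15.9, 93.5%) and Mael (14.9, 91.7%). Tdrd12 (10.3, 73.0%), Tdrd1 (10.1, 72.2%) and Tdrd9 (9.20, 64.3%) lay lower in the list. Asz1 and Pld6 had none. Tdrd12 thus carried a peak while its transcript passed no test in Pcgf6-/-, and Asz1, with the largest ratio, had no peak in this list. The summits lay close to the starts: 16 bp downstream in Tdrkh, 30 bp in Tdrd1, 78 bp in Mael, 105 bp in Tdrd12 and 195 bp in Ddx4, and at -94 bp in Tdrd9, -139 bp in Mov10l1 and -236 bp in Piwil2, where minus means upstream. In the 101 bases around the summit, 3 of the 8 peaks held the E-box CACGTG, against 13% of all 1868 summits. The elements printed above for Tdrd9, Mov10l1 and Tdrd1 were these 3, 1, 20 and 39 bases from their summits. The E2F element was in 1 of 8 (Ddx4), against 3.05% of summits, and the T-box site in 0 of 8, against 1.39%.

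In the Pcgf6-/- list, which measures what the antibody still gives without its target, 2 members had a peak, against 1.64% of coding genes in 1042 peaks. They were Tdrkh, with its summit at -548 bp (fold enrichment 11.1, at or above 60.7% of that list), and Tdrd1 (8.63, 36.5%), 11 bp from the start. The PCGF6 signal at the start of Tdrd1 was therefore also called without PCGF6.

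The PCGF6 lists of the other lines differed in length. With 5528 peaks in Pcgf1-/-, 9 members had a peak (17.6% of coding genes), all but Asz1. With 12842 peaks in Pcgf2/4-/-, 10 did (32.4%), and the Tdrkh peak (73.4) was at or above 100.0% of the list. With 1571 peaks in Pcgf3/5-/-, 8 did (5.32%). In Ring1a-/-_Ring1bfl cells 10 members had a peak (2222 peaks, 6.15%). In Ring1a/b-/- cells 8 did (1642 peaks, 4.74%), without Tdrd12 and Pld6. Most of the members' starts thus still carried called PCGF6 peaks in the cells labelled as lacking RING1A and RING1B.

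The hairpin lists came from cells with hairpins named for the DNA-binding partners MGA and E2F6. None of the 14 RNA libraries was from such cells, so how far the partners were reduced is not shown. In shCtr cells all 10 members had a PCGF6 peak (7451 peaks, 20.2% of coding genes), with Tdrkh (34.4, 99.9%), Ddx4 (26.0, 99.5%) and Mael (25.4, 99.3%) near the top and Asz1 (6.35, 47.0%) and Pld6 (6.67, 53.9%) near the middle. With the MGA hairpin 1 member remained (468 peaks, 0.71%): Tdrkh, with a fold enrichment of 6.82 and its summit at -532 bp, near the -548 bp of the Pcgf6-/- list and away from the summit 16 bp past the start in wild-type. With the E2F6 hairpin 6 did (557 peaks, 1.89%): Ddx4, Mael, Tdrd1, Tdrkh, Mov10l1 and Piwil2, with Tdrkh (15.0) at or above 98.0% and Ddx4 (11.6) at or above 92.5% of the list.

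With the hairpin labelled shMGAdHLH 4 had a peak (733 peaks, 2.23%), and Tdrkh (22.1, 98.4%) and Ddx4 (19.0, 96.9%) were again high, beside Mael and Piwil2. With shE2F6-MGAdHLH 3 did (355 peaks, 0.831%): Ddx4 (9.38, 71.0%), Piwil2 (5.70) and Tdrkh (5.13). The shMGA, shMGAdHLH, shE2F6 and shE2F6-MGAdHLH lists are each much shorter than the shCtr list. A member outside such a list may thus be below its threshold rather than unbound. The lists of the MGA and the E2F6 hairpin were of like length, with 1 and 6 members, but covered 0.71% and 1.89% of coding genes. With 1 list per hairpin this difference was not tested.

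**Figure D3:**
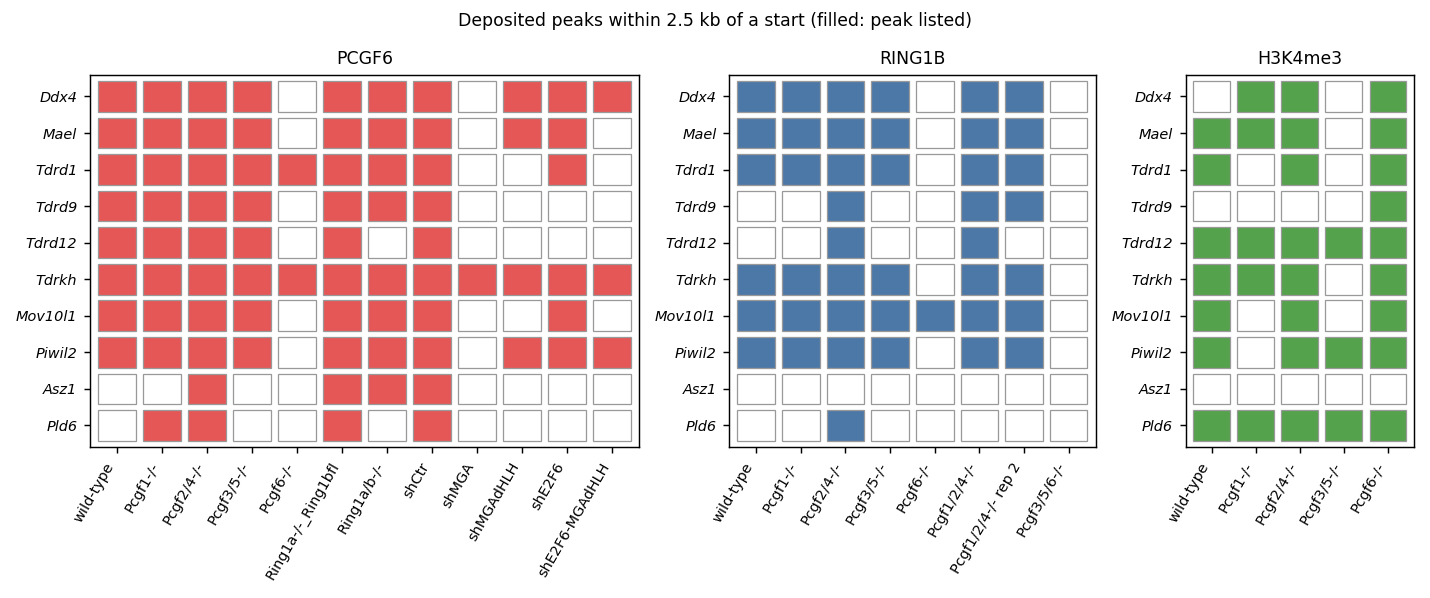
Deposited PCGF6, RING1B and H3K4me3 peaks within 2.5 kb of a start, with the 10 genes as rows and the lines as columns, where a filled square is a listed peak. PCGF6 squares are filled for 8 genes in wild-type and 1 with the MGA hairpin, and RING1B squares for 6 genes in wild-type and 1 in Pcgf6-/-.

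RING1B was at 6 members in wild-type cells: Tdrkh (fold enrichment 13.7, at or above 74.5% of 5454 peaks), Ddx4 (11.1, 64.0%), Mael (10.1, 58.9%), Piwil2 (8.27, 46.4%), Tdrd1 (8.05, 44.3%) and Mov10l1 (7.03, 34.3%). The background was 15.1% of coding genes. All 6 also had a PCGF6 peak in wild-type, and none of Tdrd9, Tdrd12, Asz1 and Pld6 had a RING1B peak. In Pcgf6-/- 1 member had a RING1B peak, Mov10l1 (5.37, at or above 14.5% of the list), although the list was as long (5563 peaks) and the background 12.6%. In the list labelled Pcgf3/5/6-/- 0 did (3068 peaks, 7.88%). The RING1B calls at 5 starts were thus not in the Pcgf6-/- list.

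The other lines kept RING1B calls at the members. There were 6 in Pcgf1-/- (5696 peaks, 15.2%), 6 in Pcgf3/5-/- (5586 peaks, 15.4%) and 9 in Pcgf2/4-/- (5607 peaks, 17.0%), all but Asz1. In Pcgf2/4-/- the Tdrkh peak (25.1) was at or above 100.0% and the Mael peak (16.2) at or above 99.2% of the list, so these starts were among its strongest. In Pcgf1/2/4-/- 8 members had a peak in the first replicate (2051 peaks, 6.84%) and 7 in the second (1814 peaks, 6.15%). This was the only line with 2 RING1B lists.

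H3K4me3 was at 7 members in wild-type cells, against 66.2% of coding genes in 40094 peaks. Pld6 (23.8, at or above 65.6% of the list), Tdrd12 (21.2, 62.8%) and Mael (14.7, 51.7%) had the stronger peaks. Piwil2 (8.75, 24.1%), Tdrkh (8.20, 17.0%), Tdrd1 and Mov10l1 (each 7.87, 15.4%) lay in the lower part of the list, and Ddx4, Tdrd9 and Asz1 had none. Pld6 and Tdrd12, the members with the highest levels per kb in wild-type, thus also had the strongest H3K4me3 peaks.

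In Pcgf6-/- 9 members had an H3K4me3 peak (45285 peaks, 67.9%), all but Asz1. Mael (53.1, 85.4%), Piwil2 (39.7, 77.1%), Tdrkh (35.6, 74.4%), Ddx4 (20.4, 61.8%), Mov10l1 (20.2, 61.5%) and Tdrd1 (16.8, 56.7%) all stood above the middle of the list. Pld6 was at 41.7 (78.3%), Tdrd12 at 7.62 (18.8%) and Tdrd9 at 6.47 (7.8%). The summits of the members' H3K4me3 peaks lay from 48 to 1799 bp downstream of the nearest start in this list. In wild-type they lay from -398 to 1839 bp, so not every peak was centred on a start. Asz1, with the largest rise of transcript, had no H3K4me3 peak within 2.5 kb of a start in either list. Ranks from lists of different lengths show no change, so these are descriptions of each list. Members with a peak numbered 5 in Pcgf1-/- (41652 peaks, 65.1%), 8 in Pcgf2/4-/- (47619 peaks, 66.1%) and 3 in Pcgf3/5-/- (41525 peaks, 64.9%). The 3 were Tdrd12, Piwil2 and Pld6, and within 5 kb the count in Pcgf3/5-/- was 5.

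**Figure D4:**
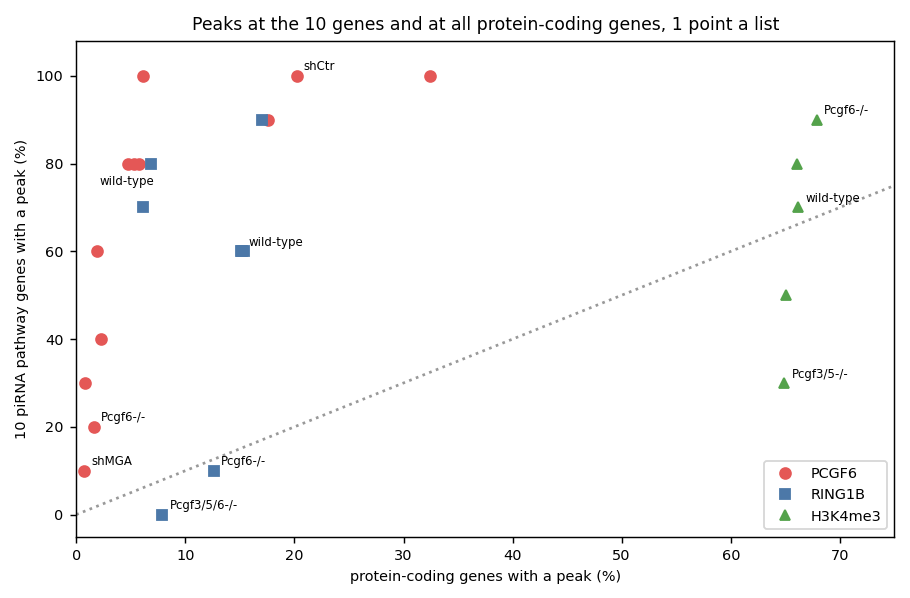
Share of the 10 genes with a peak (vertical axis, percent) against the share of 22380 protein-coding genes with one (horizontal axis, percent), 1 point for each PCGF6, RING1B or H3K4me3 list, with a dotted line where the shares are equal. The wild-type PCGF6 list holds 8 of the 10 genes at 5.77% of coding genes, the Pcgf6-/- RING1B list holds 1 at 12.6%, and the H3K4me3 lists lie on both sides of the line.

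Polycomb repressive complex 2 was read through SUZ12, one of its subunits, and H3K27me3, the mark it sets. In wild-type cells SUZ12 peaks were at Ddx4, Mael, Tdrd1 and Tdrkh (4 members, 16.5% of coding genes in 6473 peaks), and H3K27me3 peaks were at the same 4 genes by name (12.8% in 8063 peaks). In Pcgf6-/- neither list held a member: 0 for SUZ12 (6704 peaks, 14.4%) and 0 for H3K27me3 (13041 peaks, 13.6%). In the list labelled Pcgf3/5/6-/- the SUZ12 count was 0 (5364 peaks, 13%) and the H3K27me3 count 1, Tdrd1, with the summit at -2441 bp (19.7%). For SUZ12 the other lines had 5 members each: Pcgf1-/- (15.1% of coding genes), Pcgf2/4-/- (21%), Pcgf3/5-/- (16.9%) and Pcgf1/2/4-/- (13.2%). For H3K27me3 there were 7 in Pcgf1-/- (19.4%), 8 in Pcgf2/4-/- (35.8%), 8 in Pcgf3/5-/- (20.9%) and 6 in Pcgf1/2/4-/- (5.49%). The 4 genes with both calls in wild-type thus had neither in Pcgf6-/-.

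H2AK119ub1, the mark set by RING1B, was called at 2 members in wild-type, Tdrd1 and Tdrkh (3.76% of coding genes), and at 0 in Pcgf6-/- (6.93%). Counts in the other lines were 5 in Pcgf1-/- (9.79%), 8 in Pcgf2/4-/- (40.8%), 10 in Pcgf3/5-/- (65.0%), 3 and 2 in the Pcgf1/2/4-/- lists (1.64% and 0.827%) and 2 in Pcgf3/5/6-/- (31.2%). H3K36me3, a mark of transcribed gene bodies, was near the start of Pld6 alone in wild-type (26.2%) and near Mael, Tdrkh, Mov10l1, Piwil2 and Pld6 in Pcgf6-/- (31.3%).

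The remaining antibodies were against other PCGF proteins, WDR5 and USF1. PCGF3 peaks were at 0 members in wild-type (223 peaks, 0.889% of coding genes) and at 6 in Pcgf6-/- (612 peaks, 2.26%): Ddx4, Mael, Tdrd1, Tdrkh, Mov10l1 and Piwil2. These 6 are the genes with a RING1B peak in wild-type. In Pcgf2/4-/- 1 member, Tdrkh, had a PCGF3 peak (0.442%). PCGF2 was at 0 members in wild-type (4472 peaks, 12.7%), at Tdrkh in Pcgf1-/- (12.4%) and in Pcgf6-/- (19.5%), and at Mael and Tdrkh in Pcgf3/5-/- (9.59%). PCGF1 was at Asz1 and Pld6 in Ring1a-/-_Ring1bfl, a list that covers 31.7% of coding genes, and at no member in its other lists. WDR5, a subunit of H3K4 methyltransferases and also of the PCGF6 complex, was at 7 members in wild-type, all but Tdrd9, Asz1 and Pld6 (2176 peaks, 9.16%). USF1, which is also known to bind CACGTG, was at Tdrd1, Tdrd9 and Pld6 (9659 peaks, 16.2%), and the upstream sequences printed above for these 3 genes hold that E-box. Those of Ddx4, Mael and Mov10l1 hold it too, and these genes had no USF1 peak.

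**Figure D5:**
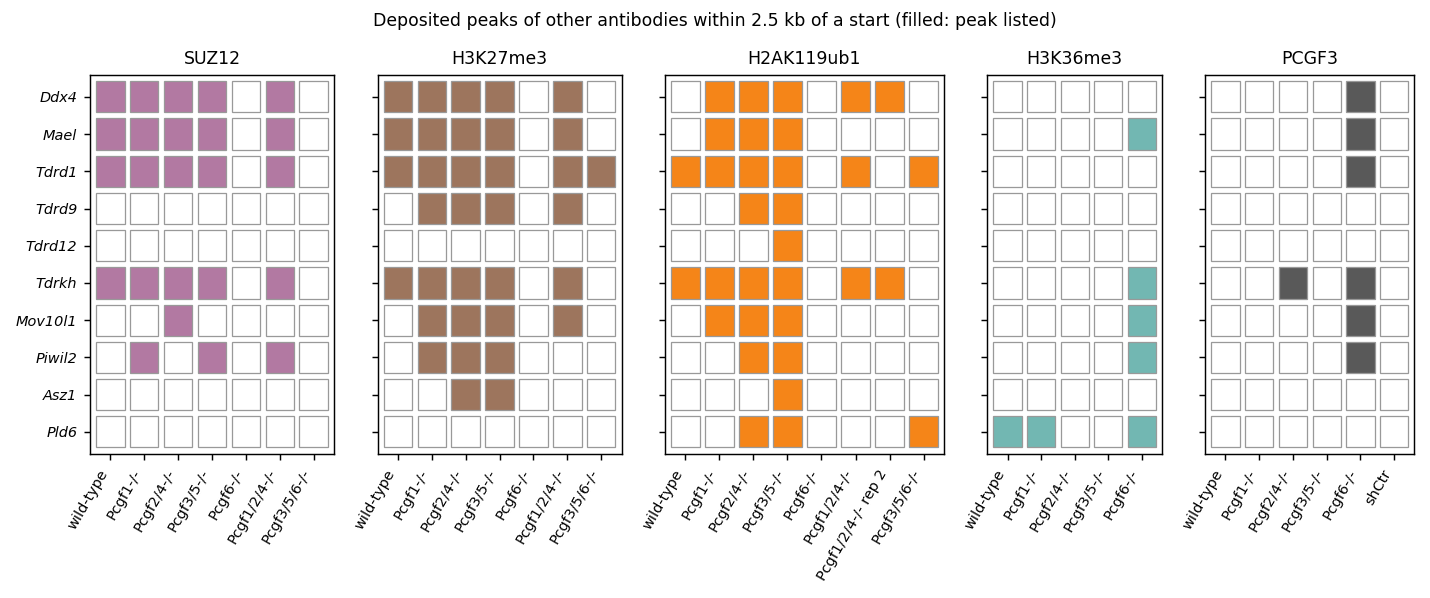
Deposited SUZ12, H3K27me3, H2AK119ub1, H3K36me3 and PCGF3 peaks within 2.5 kb of a start, with the 10 genes as rows and the lines as columns, where a filled square is a listed peak. SUZ12 and H3K27me3 squares are filled for Ddx4, Mael, Tdrd1 and Tdrkh in wild-type and for 0 of the 10 genes in Pcgf6-/-, where PCGF3 squares are filled for 6.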

How the data were processed

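The study measured RNA in 14 libraries of E14 mouse embryonic stem cells and chromatin in ChIP-seq samples of the same lines. Per the labels' protocols, poly-A RNA went into libraries of a modified SMART-seq2 type, and histone-mark ChIP contained Drosophila chromatin as a spike-in. The authors deposited whole-number counts per gene symbol, without normalization. Of its sample columns, 0 were left without a sample. Peaks were deposited as 80 lists, each called from 1 sample, with a fold enrichment (a ratio) and −log10 p and q values per peak, per the file headers. The build mm9 (NCBIM37) and TopHat2 2.1.1, Bowtie 1.2.2, Picard 1.62, HTSeq 0.7.2, DESeq2 3.7 (as written there), MACS2 2.1.1 and bcl2fastq 2 are named in the submitters' processing notes, without role or order. The use of strand is not given in the sources used here, and the spike-in scaling was not applied here. Of the 80 lists' 1189711 peaks, 1 ran past the end of a chromosome.

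The counts were tested in R 4.3.3 with edgeR 4.0.16 (limma 3.58.1). All 14 libraries entered 1 quasi-likelihood fit with TMM factors and no replicate block after filterByExpr, which left 15464 of 23377 genes. For each of 12 comparisons the Benjamini-Hochberg adjustment ran over these 15464 genes, and a gene was called at an adjusted p below 0.05. CPM are counts over TMM-adjusted library sizes, standard errors are the log2 fold change over the square root of F, and the common dispersion was 0.015 (biological coefficient of variation 12.3%). For genes with at most 10 counts in wild-type, the ratio of summed counts over summed library sizes has a 95% interval from the counts, which covers counting error only. Permuting 2 against 2 libraries exactly could not reach 0.05. Peaks were assigned when at least 1 bp lay within 2.5 kb of a start annotated in GENCODE M1. The steps were tested on simulated data.

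The members were named whatever their values, and the genes of the list of other piRNA pathway genes were named where they passed the test in Pcgf6-/- or Pcgf3/5/6-/-. The members, lists and tests were chosen with earlier results of these data known. The alternatives were DESeq2 1.42.0, RLE factors, loess offsets, other filters, thinned libraries, a test against a log2 change of 1, fits of 2 groups, a replicate block, each library left out, the wild-type pair summed, and other windows and q thresholds for peaks. Figures used matplotlib 3.10.9 in Python 3.11.15.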

Additional observations from a re-analysis of the deposited data

Results flagged for a closer look

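Groups of 2 libraries are too small for a test of outlying samples, so every result named here was picked out because 2 knockout lines differed under the same contrast with wild-type, by a direct edgeR contrast between the lines. The lines share libraries, so these results are not independent.

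Between Pcgf6-/- and Pcgf1-/- 8 members differed, against 52.5% of all genes. The log2 differences were 4.89 for Mael and 5.90 for Tdrkh, both called in each line against wild-type with opposite signs. Between Pcgf6-/- and Pcgf2/4-/- 8 members differed (51.8% of all genes), with Ddx4 at 4.87, Mael at 3.84 and Mov10l1 at 4.85. Between Pcgf6-/- and Pcgf3/5-/- 9 differed (46%), with Ddx4 at 4.52 and Mael at 5.27. Between Pcgf6-/- and Pcgf1/2/4-/- 9 differed (57.7%), with Ddx4 at 4.53, Mael at 4.05 and Piwil2 at 5.63. In all of these the Pcgf6-/- libraries were the higher ones. Tdrd1 and Asz1 are in each of these counts, and knockout libraries alone brought them past the count filter, so their differences carry no weight.

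Between the libraries labelled Pcgf3/5/6-/- and Pcgf6-/- 4 members differed, against 46% of all genes, so this count says nothing particular of the members. Between Pcgf3/5/6-/- and Pcgf3/5-/- 8 did (51.8% of all genes), with Ddx4 at 4.47 and Mael at 5.48. Tdrd1 and Asz1 are among the 8, with the same limit as above. Mael was called lower than wild-type in Pcgf1-/-, Pcgf2/4-/-, Pcgf3/5-/- and Pcgf1/2/4-/- and higher in Pcgf6-/- and Pcgf3/5/6-/-.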

How the results depend on the processing

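Of the 32 calls of single members against wild-type, 20 were made under every alternative: 8 of 8 in Pcgf6-/-, 7 of 9 in Pcgf3/5/6-/-, 3 of 6 in Pcgf3/5-/- (Mael, Piwil2 and Asz1), 1 of 2 in Pcgf1-/- (Mael), 0 of 3 in Pcgf2/4-/- and 1 of 4 in Pcgf1/2/4-/- (Piwil2). Among the 20 are Tdrd1 and Asz1 in Pcgf6-/- and Pcgf3/5/6-/-, and Asz1 in Pcgf3/5-/-. Knockout libraries alone brought these genes past the count filter, so that their calls were kept carries no weight. Of 833 values over the alternatives, 733 kept direction and side of the threshold, 64 lost a call, 10 gained one and 26 changed sign, 0 of the last among called values. The cause of these changes was not tested.

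Signs changed only for values that were not called. Mov10l1 in Pcgf1-/- was 0.002 with RLE factors, 0.0035 without a filter and 0.0151 in a fit of 2 groups. With thinned libraries the log2 values were 0.18 for Ddx4, -0.55 for Asz1 and -0.30 for Pld6 in Pcgf1-/-, -0.28 for Pld6 in Pcgf2/4-/-, -0.0218 for Pld6 in Pcgf6-/-, and 1.197 for Tdrd9 and -0.0407 for Tdrd12 in Pcgf1/2/4-/-. With loess offsets they were 0.0798 for Tdrd12 in Pcgf6-/-, and 0.0129 for Tdrkh and 0.13 for Mov10l1 in Pcgf1/2/4-/-. Leaving out 1 library gave ranges of -0.35 to 0.19 for Mov10l1 and -0.58 to 5.24 for Asz1 in Pcgf1-/-. In Pcgf2/4-/- they were -0.16 to 0.59 for Tdrd9, -0.58 to 0.55 for Tdrkh, -3.97 to 3.73 for Asz1 and -0.45 to 0.29 for Pld6. In Pcgf3/5-/- Tdrkh ran from -0.91 to 0.22, and in Pcgf1/2/4-/- Tdrd1 from -0.12 to 1.08, Tdrd12 from -0.0082 to 0.0857 and Tdrkh from -0.78 to 0.36.

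The counts of members that moved by over 1.5 times were, with thinned libraries, 1 higher (Tdrd9) and 1 lower in Pcgf1-/-, 1 lower in Pcgf2/4-/-, 2 higher and 1 lower in Pcgf3/5-/-, and 2 between Pcgf3/5/6-/- and Pcgf6-/-. Against a log2 change of 1 they were 1 lower in Pcgf1-/-, 0 lower in Pcgf2/4-/-, 2 higher and 1 lower in Pcgf3/5-/-, 1 lower in Pcgf1/2/4-/-, 0 lower in Pcgf3/5/6-/- and 1 between Pcgf3/5/6-/- and Pcgf6-/-. In fits of 2 groups they were 1 lower in Pcgf1-/-, 0 lower in Pcgf2/4-/-, 1 lower in Pcgf3/5-/- and 2 lower in Pcgf3/5/6-/-. Loess offsets gave 1 higher (Tdrd12) in Pcgf1-/- and 2 lower in Pcgf1/2/4-/-, DESeq2 gave 1 higher in Pcgf1/2/4-/-, no filter gave 2 lower in Pcgf3/5/6-/-, and the wild-type pair summed gave 2 higher in Pcgf3/5-/-. Without single libraries the counts ran from 0 to 1 higher and 1 to 2 lower in Pcgf1-/-, 0 to 1 and 1 to 3 in Pcgf2/4-/-, 2 to 4 and 1 to 2 in Pcgf3/5-/-, 0 to 1 and 1 to 3 in Pcgf1/2/4-/-, and 2 to 3 between Pcgf3/5/6-/- and Pcgf6-/-. DESeq2 gave no adjusted p for 7 values, which were left out.

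The labels give the genotypes the same replicate numbers. Over 21 pairs of groups the correlation of same-numbered deviations ran from -0.462 to 0.375, with 3 over 0.1. Those 3 joined Pcgf1-/-, Pcgf3/5-/- and Pcgf6-/- (0.375, 0.22 and 0.199). Pcgf2/4-/- ran against each of these lines (-0.462, -0.397 and -0.239). All other pairs lay from -0.0627 to 0.0597. Libraries of these lines thus deviated in part together or in opposite ways, and the cause was not tested. With a replicate block the counts were 2 lower in Pcgf2/4-/-, 3 higher in Pcgf3/5-/-, 8 between Pcgf6-/- and Pcgf3/5-/- and 3 between Pcgf3/5/6-/- and Pcgf6-/-, and the other counts did not move. Mov10l1 was not called in Pcgf2/4-/- (-0.65, adjusted p = 0.0585) or Pcgf3/5-/- (0.54, 0.057).

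For peaks, 96 of 97 alternative counts were within 1.5 times of the main one and 92 were equal. The exception was H3K4me3 in Pcgf3/5-/-, with 5 members within 5 kb. Depth limits Tdrd1 and Asz1, which had 10 or fewer counts over both wild-type libraries.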
